A study of Arabidopsis thaliana with 48 samples.

Results

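A set of 17 genes, out of 32833 listed, rose late and in the lit leaf when a single Arabidopsis leaf was placed under excess light. The genes were chosen by measured values, with change defined within a table as the mean log2(normalized count + 1) of the 3 libraries at a time point minus that at 0 min. Each gene had a change of at least 1.5 after 8 min in the local (lit) leaf of both genotypes, under 0.5 after 8 min in the systemic leaf of both, and under 0.7 after 2 min in the local leaf of both. Genes also needed an average of 50 or more normalized counts across each local table's 12 libraries, which 14061 genes reached. The changes at 8 min, the local changes at 2 min and these levels are therefore given below as a description, without a test.

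The plants were Arabidopsis thaliana of the Columbia accession, either rbohD knockout plants or wild type (Col, called WT), 4 to 5 weeks old and grown at 23 °C in short days under 50 µmol m-2 s-1. In each plant 1 local leaf received 2000 µmol m-2 s-1 for 0, 2, 4 or 8 min, and a systemic leaf of the same plant that received no such light was collected with it. Genotype, leaf and time gave 16 groups of 3 replicates, 48 libraries in all, and each replicate was a pool of leaves of many plants. RBOHD is a plasma membrane NADPH oxidase that forms superoxide in the apoplast, and plants without it do not propagate the wave of reactive oxygen species that leaves a stressed leaf. Each combination of genotype and leaf was 1 table of 12 libraries, normalized on its own, and WT and rbohD were labelled as separate experiments, so genotype, experiment and table cannot be told apart and levels were compared by a test only inside a table.

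The rbohD libraries held 13412657 to 21834017 reads assigned to genes and the WT libraries 18311884 to 28675623. The RBOHD transcript (AT5G47910) was lower in every rbohD library than in every WT library, at 337 to 697 normalized counts in rbohD and 1096 to 2153 in WT, so reads from the locus were still counted in the mutant. The leaf label was checked with mesophyll markers, whose summed level (RBCS1A, LHCB1.3 and CA1) was at least 610400 normalized counts in every library, while the root markers CASP1 and NRT2.1 summed to at most 3.62. In leaves of this kind, fewer cells of a type and less RNA per cell cannot be told apart. In rbohD local leaves the mesophyll sum was 802800 to 815000 at 0 min, 610400 to 625800 after 4 min and 632300 to 728200 after 8 min. In WT local leaves it was 1220000 to 1299000 at 0 min, 1092000 to 1181000 after 4 min and 1028000 to 1105000 after 8 min. The xylem markers IRX3 and XCP1 summed to 127 to 194 after 4 min, against 212 to 280 at 0 min, in rbohD local leaves and to 224 to 283, against 362 to 433, in WT local leaves. The guard cell markers summed to 525 to 552 after 4 min, against 567 to 617 at 0 min, in rbohD local leaves and to 701 to 760, against 802 to 951, in WT local leaves. Epidermis markers were also lower in rbohD (1807 to 1963 after 4 min, against 2102 to 2281 at 0 min), and phloem markers higher in WT (9127 to 10280, against 8648 to 8777). The part of these shifts in the changes below was not tested.

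Heat shock proteins are chaperones. Small heat shock proteins hold unfolding proteins in a soluble state, proteins of the HSP70 family refold them with the help of J-domain partners, and heat shock factors switch the genes on by binding short repeats of the bases GAA and TTC called heat shock elements. Excess light heats a leaf and also damages its proteins through reactive oxygen species, and chaperone genes are well known targets of both. By their annotation 7 of the 17 genes encode chaperones or J-domain proteins, namely HSP22.0, HSP18.2, HSP70B, HSP70T-2, MTHSC70-2, AT1G72416 and AT3G13310. The others encode a Bax inhibitor-1 family protein (AT1G03070), a UFD1 family protein (AT4G15420), the lipocalin TIL, the transcription regulators EPR1, RAP2.4 and AT1G20640, an elongation factor subunit (AT5G12110), a ribosomal L18p/L5e family protein (AT1G14205) and 2 membrane transporters (AT3G07080 and AT1G04570).

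Heat shock elements are shown because they are the textbook control sites of chaperone genes. An element was counted where GAANNTTC or TTCNNGAA occurred, and a 3-unit element where GAA and TTC alternated over 3 repeats with 2 bases between neighbours, on either strand and with overlaps allowed. In the 500 bases before the annotated start codon, 9 of the 17 genes (52.9%) had an element, against 33.8% of all 27431 genes with such a window, and 4 of 17 (23.5%) had a 3-unit element, against 1.2% of all genes. Sequence was taken from the RefSeq TAIR10.1 assembly, and the 4 sites with 3 units are printed with their elements in capitals.
HSP22.0: agatatTTCAAGAAACTTCttcatt
AT1G03070: ggtgccTTCAAGAACGTTCtacttt
HSP18.2: acaaacGAAACTTCCTGAAatgcca
EPR1: tcaaccTTCTCGAAATTTCcatgaa

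The HSP22.0 site lies at chr4:6370381-6370405 on the plus strand, with its elements ending 137 bases before the start codon. That of AT1G03070 lies at chr1:729861-729885, also on the plus strand, and ends 268 bases before the start codon. The HSP18.2 site is at chr5:24062390-24062414 on the plus strand and ends 223 bases before the start codon. The EPR1 site, named after its value was seen, is at chr1:6308096-6308120 on the minus strand and ends 383 bases before the start codon. All 4 sites lie between the annotated gene start and the start codon. Simple elements of the other chaperone genes are shown for comparison, from chr1:5504463-5504482 on the minus strand, chr5:2975574-2975593 on the plus strand and chr1:27260572-27260591 on the minus strand.
HSP70B: ccttttTTCTCGAAatgtct
MTHSC70-2: catctaGAATCTTCcctcaa
AT1G72416: acctttTTCTAGAAaagtga

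Among 118 other genes that also had a change of at least 1.5 after 8 min in both local tables, 71.2% had an element in this window and 15.3% a 3-unit element. The share with a simple element was thus lower in the 17 genes than in those genes, and no test of the difference was run. HSP70T-2 and AT3G13310 held none of these letters in this window, nor did 6 of the other genes. The window was chosen after a first one, the 250 bases before the annotated gene start, had been seen. There 2 of 17 genes (11.8%) had an element, against 16.1% of all promoters and 36.4% of the other late genes, and 0 of 17 had a 3-unit element, against 0.383% and 8.47%. The count of 3-unit elements thus depends on the window. The DRE core CCGAC was in 4 of 17 of the first windows (23.5%, against 12% of all promoters and 14.4% of the other late genes) and in 3 of 17 of the second (17.6%, against 23.4% and 28.8%). The G-box CACGTG was in 0 of the first (against 6.49% and 13.6%) and in 3 of the second (17.6%, against 9.34% and 21.2%). The W-box TTGAC was in 7 of the first (41.2%, against 44.9% and 50%) and in 11 of the second (64.7%, against 65.9% and 62.7%). A match is only an occurrence of letters.

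**Figure D1:**
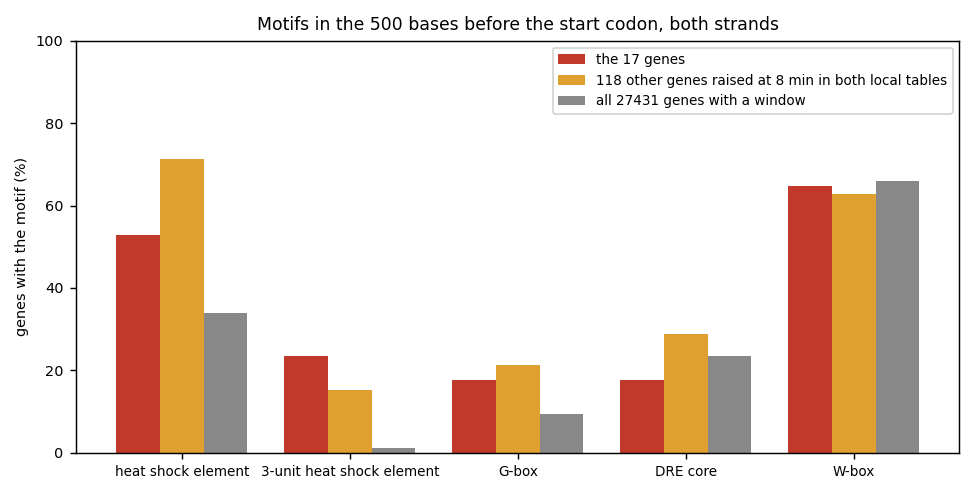
Share of genes (%) with each motif in the 500 bases before the start codon, for the 17 genes, the 118 other genes raised at 8 min in both local tables, and all 27431 genes. The 3-unit heat shock element is in 23.5% of the 17 genes, 15.3% of the other late genes and 1.2% of all genes.

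Both limits of the rule removed many genes. Of 137 genes that reached the level and the 8 min limit in both local tables, 17 (12.4%) met all limits. Another 31 (22.6%) were past the 2 min limit only, 7 (5.11%) past the systemic limit only, and 82 (59.9%) past both. Nearest to the 8 min limit on its inner side were TIL, with a change of 1.59 in rbohD and 1.64 in WT local leaves, AT3G07080 with 1.63 in rbohD and AT1G14205 with 1.68 in WT. Just outside it were ROF1 with 1.28 and GTE2 with 1.00 in WT local leaves, and AT4G39366 with 1.43 and AT4G09150 with 1.41 in rbohD local leaves. At the 2 min limit in rbohD local leaves MTHSC70-2 (0.64) and AT1G04570 (0.47) were inside, and HSA32 (0.72) and ATAF1 (0.74) outside. In WT local leaves AT3G07080 (0.49) and RAP2.4 (0.33) were inside and AT5G56020 (0.91) outside. At the systemic limit AT5G12110 (0.38) and HSP22.0 (0.33) were inside and AT1G71000 (0.90) outside in rbohD, and AT1G72416 (0.30) and AT3G07080 (0.24) were inside and AT1G62730 (0.92) and BAG6 (1.03) outside in WT. For the level, HSP22.0 (59.6) and AT1G04570 (77.9) were the lowest inside in rbohD local leaves, with AT4G03940 (41.9) and AT1G52560 (32.9) outside, and AT1G72416 (71.1) and AT1G14205 (91.2) were the lowest inside in WT local leaves.

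The chaperone families were divided unevenly by the rule. In the counts that follow a gene is late where it reached both the level and the 8 min limit in both local tables. Of 11 listed genes of the HSP70 family 4 were late, and 3 of these met all limits. Of 10 listed cytosolic small heat shock proteins 9 were late and 1, HSP18.2, met all limits. Of 6 listed small heat shock proteins of organelles 4 were late and 1, HSP22.0, met all limits. The other 2, HSP21 (8 min change 6.79 in rbohD and 7.98 in WT) and AT1G52560 (6.34 and 6.61), missed only the level, with averages of 28.3 and 32.9 normalized counts in rbohD local leaves. Among 17 listed J proteins and cochaperones 9 were late and 1, AT3G13310, met all limits. Late genes were also found among the heat shock factors (5 of 21), HSP100 proteins and chaperonins (2 of 8), endoplasmic reticulum folding factors (2 of 17), photoprotection genes (2 of 10) and the HSP90 family (1 of 7), none of which met all limits. The level also kept out the heat shock factor AT-HSFA7B and the ascorbate peroxidase APX2, both past the 8 min limit. The flavonoid pathway had 0 late genes of 8.

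HSP22.0 (AT4G10250), a small heat shock protein of the endoplasmic reticulum, had the largest change at 8 min of the 17 genes in both genotypes. In rbohD local leaves it had 0 reads in all libraries at 0 and 2 min, 5.81, 4.94 and 4.13 normalized counts at 4 min and 255, 192 and 253 after 8 min. The WT local libraries had 0 reads at 0 and 2 min, 11.7, 8.82 and 9.51 normalized counts at 4 min and 340, 400 and 376 after 8 min. The 8 min mean was at least 70.4-fold higher than 0 min in rbohD and at least 109-fold higher in WT, against a floor of 3 reads per library. At 4 min the means were only 1.5 and 2.93 times that floor in rbohD and WT, close to the limit of detection. In systemic leaves the highest library held 0.98 normalized counts in rbohD and 0.956 in WT, which is 1 read, so the gene was not tested there.

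HSP18.2 (AT5G59720) is a cytosolic small heat shock protein. In rbohD local leaves it had 12.2, 16.4 and 18.3 normalized counts at 0 min, 25.2, 24.7 and 33.9 after 4 min and 298, 280 and 311 after 8 min. The WT local libraries had 13.7, 15.4 and 13.9 at 0 min, 51.7, 32.0 and 27.5 after 4 min and 398, 404 and 366 after 8 min. No 4 min library overlapped those at 0 min in either genotype, and the systemic leaves stayed between 13.4 and 28.1 in rbohD and between 13.1 and 30.4 in WT.

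HSP70B (AT1G16030) is a stress-inducible HSP70 of the cytosol. Its level in rbohD local leaves was 66.3, 80.9 and 69.7 normalized counts at 0 min, 200, 179 and 180 after 4 min and 3088, 2920 and 3041 after 8 min. WT local leaves held 104, 68.0 and 91.8 at 0 min, 230, 259 and 225 after 4 min and 4320, 4564 and 4509 after 8 min. The 8 min libraries were thus far above every systemic library, the highest of which had 87.2 in rbohD and 95.9 in WT.

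HSP70T-2 (AT2G32120) is a shortened relative of the HSP70 proteins. It had 75.1, 94.0 and 77.0 normalized counts at 0 min, 293, 247 and 282 after 4 min and 3817, 3446 and 3545 after 8 min in rbohD local leaves. Those in WT were 172, 164 and 183 at 0 min, 571, 507 and 485 after 4 min and 5888, 6125 and 5889 after 8 min. The change at 8 min was 5.44 in rbohD and 5.10 in WT.

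MTHSC70-2 (AT5G09590) encodes an HSP70 of the mitochondrion, where such proteins draw in and fold imported proteins. It was the most abundant of the 17 after 8 min in normalized counts, which are not corrected for transcript length, with 11843, 11764 and 11877 in rbohD local leaves and 15283, 16044 and 15366 in WT local leaves. At 0 min it had 1184, 1170 and 1187 in rbohD local leaves and 2614, 2754 and 2678 in WT local leaves. Its 8 min change was 3.32 in rbohD and 2.54 in WT, a difference of 0.79 that was not tested because the rule used it.

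The J-domain proteins changed less. AT1G72416 had 245, 210 and 245 normalized counts after 8 min, against 71.8, 70.0 and 69.7 at 0 min, in rbohD local leaves. In WT it had 158, 171 and 170 after 8 min, against 40.0, 31.7 and 32.9 at 0 min. AT3G13310 had 576, 478 and 557 after 8 min, against 211, 142 and 157 at 0 min, in rbohD local leaves. Its WT values were 648, 626 and 641 after 8 min, against 148, 133 and 158 at 0 min. The 8 min changes of the 2 genes were 1.71 and 1.67 in rbohD and 2.23 and 2.12 in WT.

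Outside the chaperone families AT1G03070 changed most, by 5.29 in rbohD and 5.99 in WT. AT1G03070, of the Bax inhibitor-1 family of membrane proteins known for restraining cell death, had 8.84, 8.75 and 7.34 normalized counts at 0 min, 20.3, 27.6 and 19.8 after 4 min and 379, 352 and 355 after 8 min in rbohD local leaves. WT had 10.3, 7.25 and 10.4 at 0 min, 29.4, 43.0 and 41.2 after 4 min and 630, 650 and 659 after 8 min. Its systemic libraries stayed between 6.04 and 14.5 in rbohD and between 5.08 and 18.2 in WT. AT4G15420 belongs to the UFD1 family, which in yeast helps to pull ubiquitin-tagged proteins out of complexes, and had 1870, 1705 and 1770 normalized counts at 8 min, against 223, 213 and 221 at 0 min, in rbohD local leaves. The WT values were 2474, 2579 and 2508 after 8 min, against 321, 295 and 271 at 0 min. TIL (AT5G58070), a lipocalin known for protecting membranes in heat and light stress, had 5924, 6155 and 6424 after 8 min and 2152, 2036 and 1969 at 0 min in rbohD local leaves, and 9039, 9816 and 9152 after 8 min and 3068, 3093 and 2812 at 0 min in WT local leaves. It had the smallest 8 min change of the 17 genes in both genotypes.

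Among the regulators, RAP2.4 (AT1G78080), an AP2/ERF transcription factor also known for wound-induced dedifferentiation, moved in graded steps. In rbohD local leaves its mean was 1445 ± 17.7 normalized counts at 0 min (SD over 3 libraries, here and below), 1955 ± 46.3 after 2 min, 3213 ± 276 after 4 min and 4927 ± 134 after 8 min. In WT the mean was 2350 ± 88.3 at 0 min, 2950 ± 112 after 2 min, 4268 ± 289 after 4 min and 7873 ± 284 after 8 min. EPR1 (AT1G18330), a MYB-like protein related to clock regulators, averaged 946 ± 44.1 after 8 min in rbohD and 1048 ± 16.5 in WT local leaves, with 8 min changes of 2.07 and 1.91. AT1G20640, an RWP-RK protein of the family that mediates nitrate responses, averaged 1427 ± 5.54 after 8 min in rbohD and 1943 ± 3.61 in WT local leaves, with changes of 1.66 and 1.74.

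AT5G12110 encodes elongation factor 1-beta 1, a subunit that recharges the factor carrying tRNAs to the ribosome. It averaged 1964 ± 67.1 normalized counts at 8 min in rbohD local leaves, with 263 ± 19.4 at 0 min, and 3312 ± 202 after 8 min in WT local leaves, with 955 ± 25.6 at 0 min. The 8 min change was 2.90 in rbohD and 1.79 in WT, the widest gap between genotypes among the 17 genes (1.11). AT3G07080, of the EamA-like transporter family, had the opposite gap, with 8 min changes of 1.63 in rbohD and 2.45 in WT. The transporter AT1G04570, of the major facilitator superfamily, changed by 2.60 in rbohD and 2.27 in WT, and AT1G14205 by 1.96 and 1.68. Over all 17 genes the 8 min change in rbohD minus that in WT had a median of -0.07, and 7 genes were above 0 and 10 below. These gaps are descriptions, since the rule used both changes.

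All 17 genes had their 3 local 8 min libraries above the 3 at 0 min in both genotypes, as did 23.4% of the genes tested in rbohD and 26.7% in WT local leaves. The rule used these libraries, so nothing is read from the count. In each genotype the 3 local 8 min libraries of every member also exceeded all of its other local libraries and all of its systemic libraries. The rule used those 8 min libraries too, and local and systemic tables were normalized separately. No share over all genes was computed for it, so it is a description from which nothing is read.

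**Figure D2:**
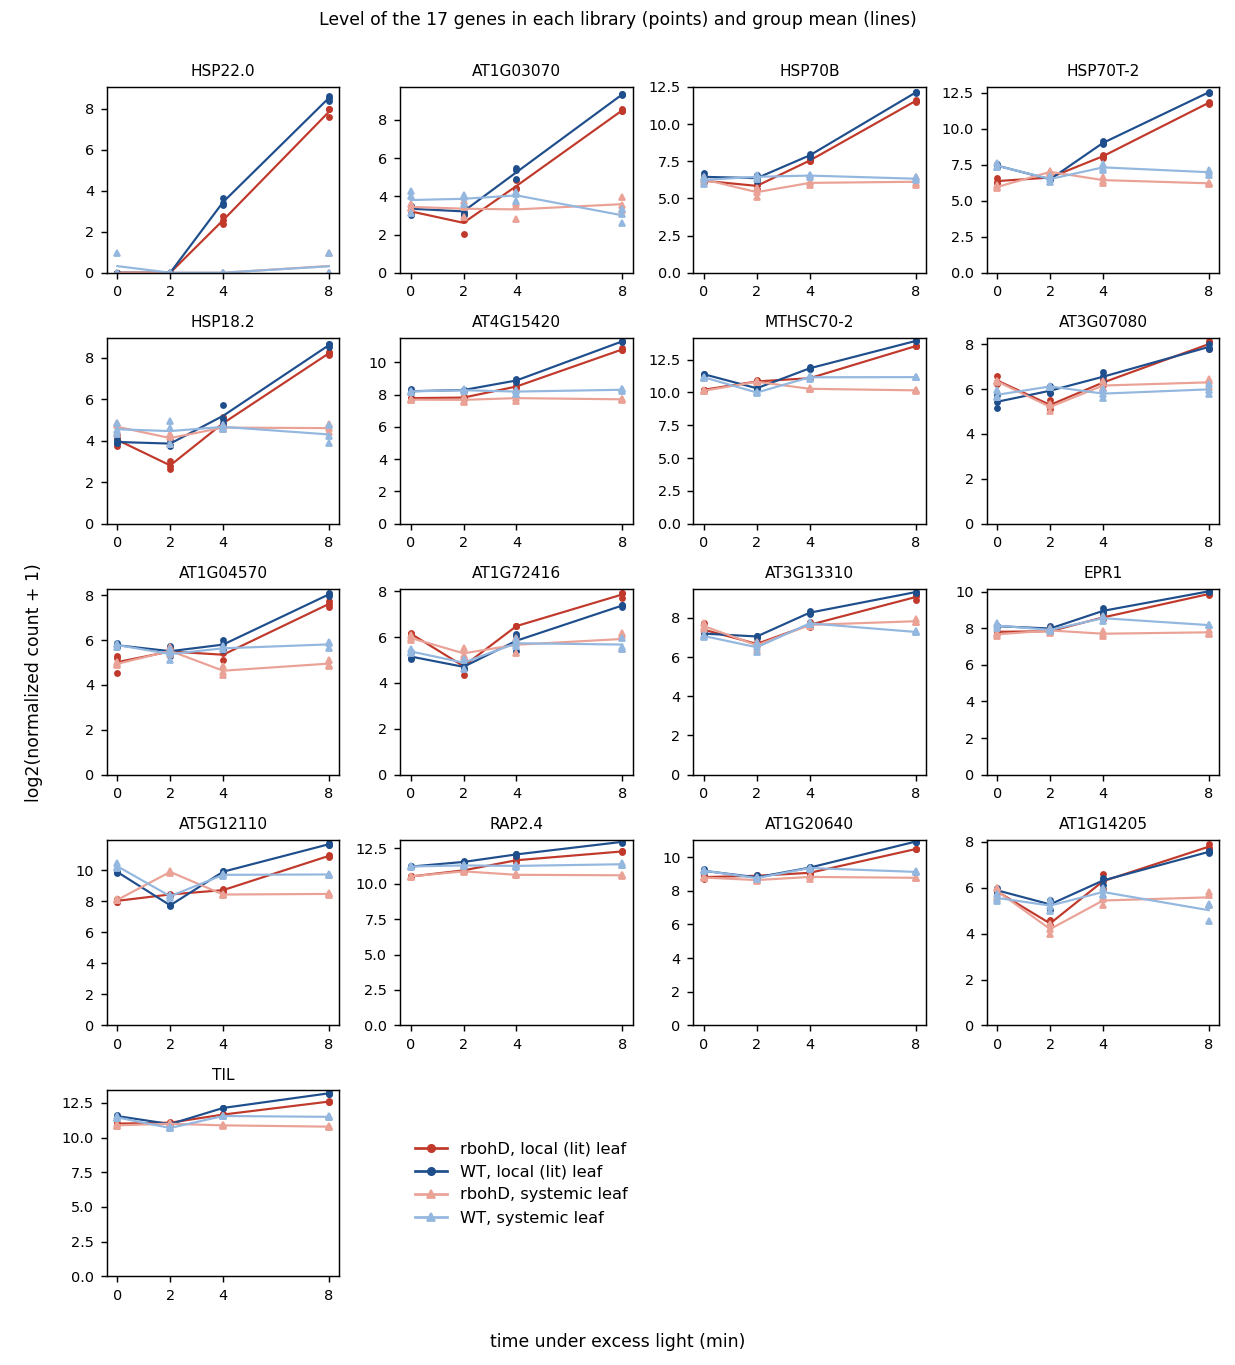
Level of each of the 17 genes, log2(normalized count + 1), against minutes of excess light, with a point per library and a line through the group means. The local lines of rbohD and WT end above the systemic lines at 8 min in every panel, while HSP22.0 has 0 reads in all local libraries at 0 and 2 min.

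The question at 4 min was how far the rise had come. The rule set no limit on the 4 min change, but it shares the 0 min libraries with it, and the 4 min libraries entered the average level. In limma fits over all genes of a table, with p adjusted by Benjamini-Hochberg over the genes tested and a threshold of 0.05, 13 of the 17 genes rose in rbohD local leaves, where 25% of all 17538 genes tested were raised and 23.1% lowered. In WT local leaves 15 of the 17 rose, where 13% of 18055 genes tested were raised and 10.8% lowered. None of the 17 fell in either. The median change of the 17 genes was 0.72 in rbohD and 0.84 in WT, with 0.00 and 0.01 over all genes tested. Of the 17 genes, 12 rose in both genotypes, as did 7.97% of the 17473 genes tested in both, and 1, AT1G04570, passed the test in neither. These counts include HSP22.0, which reached the filter for testing only through its 8 min libraries, which the rule used. Under every alternative tried, 12 of the 13 calls in rbohD and 13 of the 15 in WT held. The exceptions were AT1G14205 in both and AT1G20640 in WT, whose adjusted p reached 0.15 without rbohD local 4 min replicate 3 and, in 4 of the 6 fits that left out 1 WT library, up to 0.098 and 0.093. DESeq2 gave AT1G14205 an adjusted p of 0.081 in WT. In the other direction, 3 of the 4 genes not called in rbohD passed the threshold under some alternative.

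HSP22.0 had the highest fitted 4 min change of the 17 genes in both genotypes. It rose by 2.57 on the log2(value + 1) scale in rbohD (SE 0.41, adjusted p = 5e-06) and by 3.45 in WT (SE 0.34, adjusted p = 8e-08), and these fitted values depend on the pseudocount, with 0.99 to 5.35 in rbohD and 1.58 to 6.35 in WT over the alternatives. AT1G03070 rose by 1.33 in rbohD (SE 0.24, adjusted p = 4.1e-05) and by 1.91 in WT (SE 0.19, adjusted p = 1.2e-07). HSP70T-2 rose by 1.73 in rbohD and 1.58 in WT, and HSP70B by 1.36 in rbohD and 1.45 in WT. HSP18.2 rose by 0.80 in rbohD (adjusted p = 0.0023) and 1.26 in WT (adjusted p = 4.4e-05). The regulators RAP2.4 (1.15 in rbohD, 0.86 in WT) and EPR1 (0.79 and 0.84) had also risen in both.

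At the other end AT5G12110 had a 4 min change of 0.69 in rbohD (SE 0.061, adjusted p = 1.1e-10) and 0.02 in WT (SE 0.050, adjusted p = 0.85). AT1G04570 had 0.33 in rbohD (adjusted p = 0.14) and 0.03 in WT (adjusted p = 0.91). AT3G07080 had -0.09 in rbohD (adjusted p = 0.62) and rose by 1.12 in WT (adjusted p = 7.9e-06). The J-domain genes AT3G13310 and AT1G72416 rose in WT by 1.07 and 0.69, and had 0.25 and 0.33 in rbohD with adjusted p = 0.061 and 0.065. In rbohD AT3G13310 passed the threshold without rbohD local 0 min replicate 1 or rbohD local 4 min replicate 2 (adjusted p down to 0.0014), after rescaling and with the replicate block, and AT1G72416 after rescaling, with edgeR and in the fit of only the groups compared (down to 0.024). As a share of the 8 min change, the 4 min change had a median of 23.8% over the 17 genes in rbohD, with a range of -5.43% to 64.9%, and 31.0% in WT, with a range of 0.951% to 50.3%. In each genotype 16 of the 17 genes had reached less than 50% of their 8 min change (log2) at 4 min, the exceptions being RAP2.4 in rbohD and AT3G13310 in WT.

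**Figure D3:**
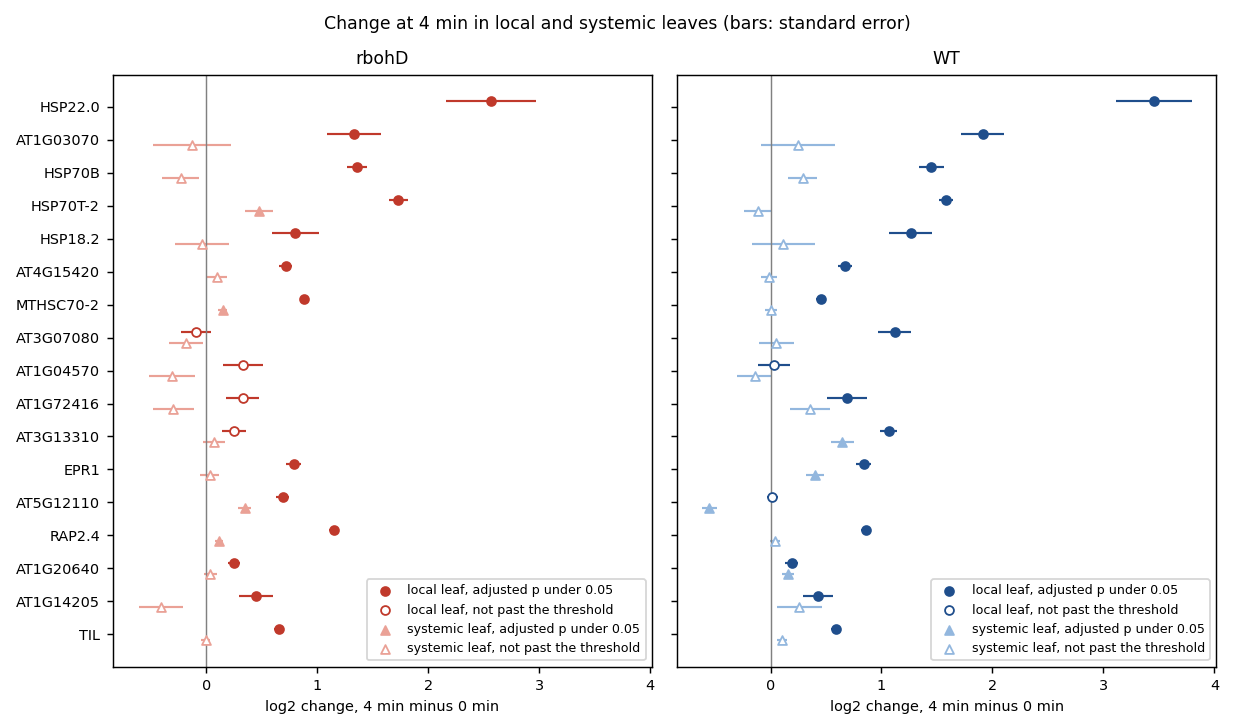
Change at 4 min (log2, 4 min minus 0 min, with standard error) of each gene in rbohD (left) and WT (right), with circles for local leaves and triangles for systemic leaves, filled where the adjusted p was under 0.05. Local changes reach 2.57 in rbohD and 3.45 in WT for HSP22.0, while the systemic changes lie between -0.41 and 0.48 in rbohD and between -0.55 and 0.65 in WT.

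The genotypes were compared at 4 min by the difference of the changes within each table, rbohD minus WT. This term passed the threshold for 5 of the 17 genes, 3 higher and 2 lower in rbohD, where 33.4% of 17473 genes tested passed it (17.5% higher and 15.9% lower). The share of the 17 genes (5 of 17) was thus near that of all genes. The change was larger in rbohD for AT5G12110 (term 0.67, SE 0.080, adjusted p = 2.3e-08), MTHSC70-2 (0.43, SE 0.058, adjusted p = 2.6e-07) and RAP2.4 (0.29, SE 0.068, adjusted p = 0.00087). It was smaller in rbohD for AT3G07080 (-1.21, SE 0.21, adjusted p = 1.8e-05) and AT3G13310 (-0.82, SE 0.14, adjusted p = 2.2e-05). These 5 calls held under every alternative. For HSP70B the term was -0.09 (SE 0.15) and for HSP70T-2 0.15 (SE 0.11). Genotype and experiment cannot be told apart in these terms.

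Chaperone lists were counted at 4 min in local leaves against the shares of all genes given above, 25% raised and 23.1% lowered in rbohD and 13% and 10.8% in WT. In rbohD local leaves 9 of 10 cytosolic small heat shock proteins rose and 0 fell, with a median change of 4.65, and in WT 9 rose and 1 fell, with a median of 2.73. The 6 small heat shock proteins of organelles rose in both genotypes, with medians of 2.84 in rbohD and 3.19 in WT. They include HSP22.0, which was tested only because its 8 min libraries passed the filter. Of 10 tested HSP70 family genes 7 rose and 3 fell in rbohD (median 0.96) and 6 rose and 2 fell in WT (median 0.25). Of 17 J proteins and cochaperones 13 rose and 1 fell in rbohD (median 0.92) and 9 rose and 4 fell in WT (median 0.24). Of 7 HSP90 genes 4 rose and 2 fell in rbohD (median 0.71) and 2 rose and 1 fell in WT (median 0.08). Of 8 HSP100 proteins and chaperonins 3 rose and 3 fell in rbohD (median -0.06) and 2 rose and 2 fell in WT (median -0.02). Of 17 endoplasmic reticulum folding factors 17 rose in rbohD (median 1.04) and 10 rose and 0 fell in WT (median 0.24). In systemic leaves at 4 min 16 of these 17 rose in each genotype, against 13.5% of all genes in rbohD and 13.9% in WT. Their local minus systemic change was higher for 14 and lower for 0 in rbohD (8.16% and 8.43% of all genes). In WT it was higher for 0 and lower for 10 (2.22% and 4.13%). In both genotypes the shares that fell among HSP70 genes, HSP90 genes, and HSP100 proteins and chaperonins were no lower than those of all genes. The same held for J proteins and cochaperones in WT. The medians over all genes tested were 0.00 and 0.01. The lists hold 6 of the 17 genes, HSP18.2 with 0.80 in rbohD and 1.26 in WT among them.

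In systemic leaves at 4 min, of the 16 that could be tested, 4 rose and 0 fell in rbohD, where 13.5% of 17609 genes were raised and 12.3% lowered. In WT 3 rose and 1 fell, where 13.9% of 18140 genes were raised and 14.1% lowered. The 4 in rbohD were HSP70T-2 (0.48), AT5G12110 (0.35), MTHSC70-2 (0.15) and RAP2.4 (0.11), and only 2 of these were called without rbohD systemic 4 min replicate 1, where HSP70T-2 had an adjusted p of 0.054. In WT AT3G13310 (0.65), EPR1 (0.40) and AT1G20640 (0.16) rose and AT5G12110 fell by 0.55. The call of AT1G20640 was lost in 5 of the 6 fits that left out 1 library, with adjusted p up to 0.12. AT1G03070, HSP70B and HSP18.2 had changes between -0.23 and 0.29 in both genotypes, none past the threshold. In WT systemic leaves 4 marker sums were lower after 4 min without overlap, mesophyll at 1093000 to 1271000 after 4 min, against 1361000 to 1489000 at 0 min, guard cell at 769 to 889, against 1040 to 1108, xylem at 291 to 381, against 462 to 579, and epidermis at 2777 to 3067, against 3124 to 3505. In rbohD systemic leaves the sums of mesophyll (759500 to 767100, against 807100 to 892500), phloem (5054 to 5207, against 5435 to 5652) and epidermis (2415 to 2530, against 2589 to 2729) were lower in the same way. Of the 3 epidermis markers 1 rose and 2 fell at 4 min in WT systemic leaves, so the lower sum does not hold for each marker. The part of these marker shifts in the systemic and leaf comparisons was not tested.

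Local and systemic leaves were compared at 4 min by the difference of their changes, local minus systemic. In rbohD 10 of the 16 genes tested had a larger rise in the local leaf and 0 a smaller one, where 8.16% of 17244 genes were higher and 8.43% lower. In WT 12 of 16 were higher and 0 lower, where 2.22% of 17836 genes were higher and 4.13% lower. The rule chose the genes for the same difference at 8 min and shares the 0 min libraries with this one, so the counts are not independent of it. The largest terms were for HSP70B in rbohD (1.59, SE 0.18, adjusted p = 1.1e-08) and for HSP70T-2 in WT (1.69, SE 0.15, adjusted p = 4.7e-10). AT1G03070 had 1.46 in rbohD and 1.66 in WT, and RAP2.4 1.04 in rbohD and 0.82 in WT. Of the calls, 9 of 10 in rbohD and 9 of 12 in WT held under every alternative. With the plant pool as a block, which the methods give as shared by the local and systemic leaves of a replicate, 11 genes were called in each genotype.

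At 2 min the systemic leaves were not still, either for these genes or for genes at large. The rule set no limit on the systemic change at 2 min. It did use the systemic 0 min libraries and limit the local change at 2 min. For most of these genes the local and systemic changes at 2 min lay on the same side of 0, as given below. The counts of these genes are thus not independent of the rule. In rbohD systemic leaves 7 of 16 genes rose and 7 fell, where 31.8% of 17609 genes were raised and 31.5% lowered. In WT systemic leaves 1 rose and 9 fell, where 30.4% of 18140 genes were raised and 29.9% lowered. The share called in either direction in WT (10 of 16) was thus near that of all genes. Of the 16 genes 6 rose in rbohD and fell in WT, as did 7.93% of the 17545 genes tested in both, and 1 fell in rbohD and rose in WT (5.48% of all genes). Another 3 fell in both (15.6% of all genes) and 0 rose in both (14.4%). Of these calls, 9 of 14 in rbohD and 6 of 10 in WT held under every alternative. Those lost under at least 1 were HSP18.2, AT1G04570, EPR1, AT1G20640 and TIL in rbohD and AT3G07080, AT1G04570, AT1G72416 and EPR1 in WT, with adjusted p up to 0.19 when 1 library was left out. The mesophyll sum was 967500 to 997100 after 2 min and 807100 to 892500 at 0 min in rbohD systemic leaves, and 1381000 to 1618000 after 2 min and 1361000 to 1489000 at 0 min in WT systemic leaves. Of the 3 mesophyll markers 1 rose and 2 fell in each genotype, with median changes of -0.18 in rbohD and -0.31 in WT. The sums thus do not give a direction for the markers. Guard cell markers summed to 692 to 771 after 2 min, against 845 to 864 at 0 min, and epidermis markers to 2472 to 2587, against 2589 to 2729, in rbohD systemic leaves. The phloem markers summed to 10350 to 10990 after 2 min, against 8206 to 8901 at 0 min, in WT systemic leaves. The part of these marker shifts in the changes was not tested.

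AT5G12110 was the widest case. In rbohD systemic leaves it had 1006, 967 and 906 normalized counts at 2 min, against 268, 274 and 279 at 0 min, a rise of 1.81 (SE 0.057, adjusted p = 2.9e-27). In WT systemic leaves it had 301, 320 and 347 at 2 min, against 1401, 1123 and 1195 at 0 min, a fall of 1.93 on the log2 scale (SE 0.068, adjusted p = 3e-16). The groups did not overlap in either, and at 4 min the gene averaged 348 ± 6.37 in rbohD and 841 ± 27.2 in WT. It shares 1221 bases with AT5G12120 on the opposite strand, and the use of strand in counting was not given in the sources used here.

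MTHSC70-2 had 1854, 1743 and 1804 normalized counts at 2 min, against 1113, 1106 and 1147 at 0 min, in rbohD systemic leaves, a rise of 0.68 (adjusted p = 2.7e-18). In WT systemic leaves it had 1033, 1026 and 999 at 2 min, against 2370, 2226 and 2244 at 0 min, a change of -1.16 (adjusted p = 1.5e-14). HSP70T-2 rose by 1.04 in rbohD, to 131, 123 and 129 normalized counts, and changed by -0.92 in WT, to 89.0, 78.7 and 105. The mitochondrial and the shortened HSP70 thus moved in opposite directions in the 2 genotypes, both in all 3 libraries. TIL rose by 0.11 in rbohD (adjusted p = 0.013, and up to 0.16 when 1 library was left out) and changed by -0.76 in WT (adjusted p = 6.1e-13).

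AT3G07080 went the other way, with -1.14 in rbohD (adjusted p = 1.9e-08) and 0.37 in WT (adjusted p = 0.046, a call lost in 5 of the 6 fits that left out 1 library, with adjusted p up to 0.14). The genes lower in both were the J-domain genes AT3G13310 (-0.98 in rbohD, -0.57 in WT) and AT1G72416 (-0.67 in rbohD, -0.49 in WT) and the regulator AT1G20640 (-0.15 in rbohD, -0.44 in WT). AT1G14205 fell by 1.66 in rbohD (adjusted p = 1.6e-09) and had -0.33 in WT (adjusted p = 0.17). HSP70B fell by 0.86 in rbohD (adjusted p = 1.8e-05) and had 0.21 in WT (adjusted p = 0.19). AT1G03070 and AT4G15420 had changes between -0.09 and 0.07, none past the threshold.

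**Figure D4:**
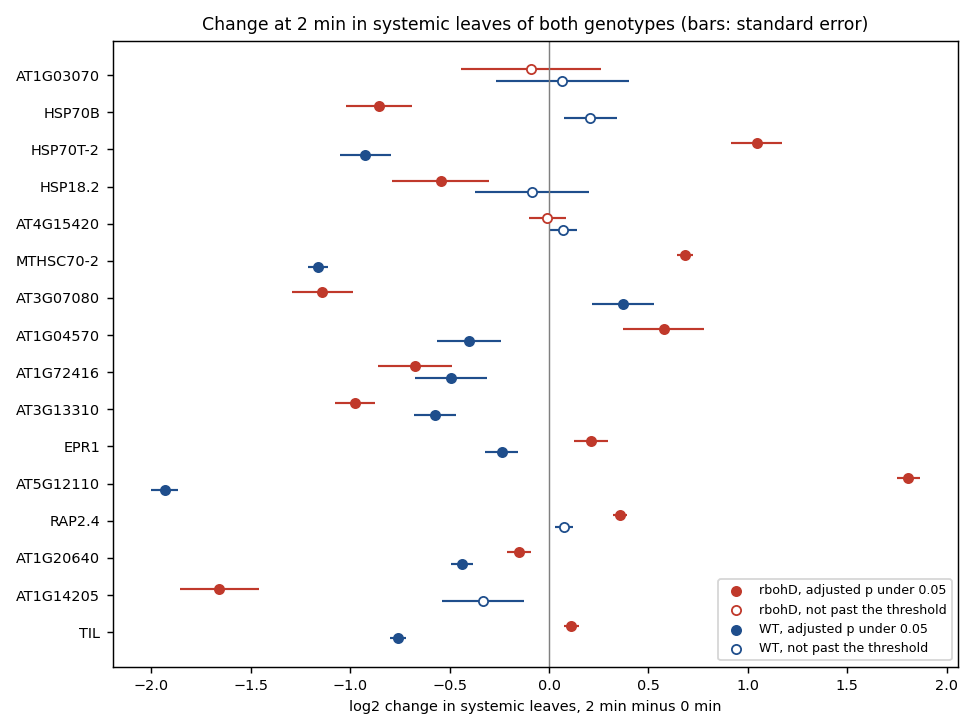
Change at 2 min in systemic leaves (log2, 2 min minus 0 min, with standard error) of the 16 genes tested, rbohD in red and WT in blue, filled where the adjusted p was under 0.05. AT5G12110 lies at 1.81 in rbohD and -1.93 in WT, and MTHSC70-2 and HSP70T-2 also lie on opposite sides of 0.

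The difference between genotypes at 2 min, rbohD minus WT, was tested after the data had been seen. Like the 2 min changes themselves, it is not independent of the rule. It passed the threshold for 12 of 16 genes, 8 higher and 4 lower in rbohD, where 55.8% of 17545 genes passed it (29.4% higher and 26.4% lower). After rescaling every library to a common total, the median of all genes was -0.14 in place of -0.01 for this term and 0.14 in place of 0.03 for the 2 min change in WT systemic leaves. The term for AT5G12110 was 3.74 (SE 0.087), for HSP70T-2 1.97 (SE 0.18) and for MTHSC70-2 1.84 (SE 0.065), each larger than that shift. The smaller called terms of AT1G20640 (0.29) and RAP2.4 (0.28) were nearer to it in size. Over the alternatives they ranged from 0.15 to 0.33 and from 0.15 to 0.30. The lowest were AT3G07080 (-1.51, SE 0.21), AT1G14205 (-1.33, SE 0.29) and HSP70B (-1.06, SE 0.21).

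The local leaves at 2 min are described without a test because the rule set an upper limit there. Local and systemic values lay on different sides of 0 in a single genotype for HSP70B, AT1G03070, AT4G15420 and AT1G20640. For the other genes tested in systemic leaves they lay on the same side in both genotypes. MTHSC70-2 changed by 0.64 in rbohD and -1.07 in WT local leaves, and AT3G07080 by -1.09 in rbohD and 0.49 in WT. AT5G12110 changed by 0.41 in rbohD and -2.15 in WT local leaves, and in WT it averaged 955 ± 25.6 normalized counts at 0 min, 214 ± 6.40 at 2 min and 967 ± 25.2 at 4 min. HSP70B changed by -0.35 in rbohD and -0.09 in WT local leaves, where the WT systemic value was above 0. Over the 17 genes, 9 were above 0 and 7 below at 2 min in rbohD local leaves, and 3 above and 13 below in WT local leaves.

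The chaperone lists to which some of the 17 genes belong were also counted at 2 min in systemic leaves, where 31.8% of all genes were raised and 31.5% lowered in rbohD and 30.4% and 29.9% in WT. Of 10 tested HSP70 family genes 6 rose and 4 fell in rbohD (median 0.86) and 0 rose and 8 fell in WT (median -0.92). Of 8 tested cytosolic small heat shock proteins 7 rose and 1 fell in rbohD (median 2.44) and 1 rose and 6 fell in WT (median -0.52). Of 16 tested J proteins and cochaperones 10 rose and 4 fell in rbohD (median 1.03) and 4 rose and 10 fell in WT (median -0.56). Of 2 tested small heat shock proteins of organelles 2 rose in rbohD, and 0 rose and 1 fell in WT. The medians over all genes tested were 0.00 in rbohD and 0.03 in WT.

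The 17 genes lie on all 5 nuclear chromosomes, 8 of them on chromosome 1, 1 on chromosome 2, 2 on chromosome 3, 2 on chromosome 4 and 4 on chromosome 5. A transcript with 1 exon was annotated for 5 of 17 (29.4%), namely HSP22.0, HSP70B, HSP18.2, AT3G13310 and RAP2.4, against 10.7% of 13954 genes with the same minimum level. Besides AT5G12110, 4 of the 17 genes overlap a gene on the opposite strand, AT1G03070 by 12 bases, AT3G07080 by 190 and 127, AT1G20640 by 462 and TIL by 324, and their values carry the same uncertainty.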

How the data were processed

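The members, the gene lists and the comparisons were chosen with earlier results of these data known. Per the labels and the study's methods, RNA was isolated with Trizol and made into stranded libraries, and single-end reads were checked with FastQC 0.11.7 and aligned with STAR 2.4.0.1 to TAIR10. How reads were counted per gene, and whether strand was used, is not given in the sources used here. The deposited signal is a gene count that the authors divided by the library's DESeq2 (1.20.0) size factor, each table by itself. All values came out as whole reads within 0.01, size factors ran from 0.8159 to 1.3833, and reads were recovered from them.

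Each table was fitted with limma 3.58.1 (R 4.3.3, mean-variance trend, two-sided) on log2(normalized count + 1), which understates changes of low genes, over genes that reached 10 normalized counts in 3 or more libraries. Benjamini-Hochberg adjusted p under 0.05 was called. The design had assumed this unit, and the study's own DESeq2 Wald test was run as an alternative. Genotype and leaf terms used 24 libraries each. The procedure was tested on simulated data. Alternatives were a pseudocount of 5, no filter, rescaling to a common total, edgeR 4.0.16 and DESeq2 1.42.0 on recovered reads, the replicate number or the plant pool as a block, fits of only the groups compared, other limits of the rule, and each library left out. All 48 pairs of replicates within groups differed by more than counting noise (chi-square per degree of freedom 1.25 to 5.03), so each was counted once. The methods give local and systemic leaves of a replicate as collected from the same plants. Floors cover counting error only.

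Named genes were RBOHD, members in a fixed list, the 10 largest 8 min changes in WT local leaves, the 5 largest and 5 smallest at 4 min, the 3 largest genotype terms in each direction at 4 min, and the 2 genes nearest each limit on either side. Genes were matched to RefSeq TAIR10.1 by locus identifier, for all 17 members, and the tables hold no coordinates.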

Additional observations from a re-analysis of the deposited data

Results flagged for a closer look

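The results listed here are those in which the change of a gene differed between genotypes or between leaves by a limma test of the difference itself, with Benjamini-Hochberg adjustment over all genes tested.

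At 4 min in local leaves the change in rbohD minus that in WT was 0.67 for AT5G12110, 0.43 for MTHSC70-2 and 0.29 for RAP2.4, and it was -0.82 for AT3G13310 and -1.21 for AT3G07080 (log2).

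Local minus systemic change at 4 min in rbohD was 1.59 for HSP70B, 1.46 for AT1G03070, 1.25 for HSP70T-2 and 1.04 for RAP2.4. It was 0.86 for AT1G14205, 0.76 for EPR1, 0.74 for MTHSC70-2, 0.66 for TIL, 0.62 for AT4G15420 and 0.34 for AT5G12110. Without rbohD local 4 min replicate 3, the adjusted p of AT1G14205 was 0.056.

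The same term in WT was 1.69 for HSP70T-2, 1.66 for AT1G03070, 1.16 for HSP70B, 1.15 for HSP18.2 and 1.07 for AT3G07080. It was 0.82 for RAP2.4, 0.68 for AT4G15420, 0.57 for AT5G12110, 0.48 for TIL, 0.45 for MTHSC70-2, 0.44 for EPR1 and 0.42 for AT3G13310. The calls of HSP18.2 and AT3G13310 were each lost in 10 of the 12 fits without 1 library, with adjusted p up to 0.16 and 0.14, and that of EPR1 without WT local 4 min replicate 1 or WT systemic 4 min replicate 1, with adjusted p up to 0.052. The pairs of leaves share the 0 min libraries with the rule that chose these genes.

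At 2 min in systemic leaves, in the comparison added after the data had been seen, rbohD minus WT was 3.74 for AT5G12110, 1.97 for HSP70T-2, 1.84 for MTHSC70-2, 0.98 for AT1G04570 and 0.87 for TIL. It was 0.45 for EPR1, 0.29 for AT1G20640 and 0.28 for RAP2.4. Below 0 were AT3G07080 at -1.51, AT1G14205 at -1.33, HSP70B at -1.06 and AT3G13310 at -0.41. The rule used the systemic 0 min libraries and limited the local change at 2 min, so these terms are not independent of it. The call of AT3G13310 was lost without rbohD systemic 0 min replicate 1, rbohD systemic 2 min replicate 3 or WT systemic 2 min replicate 2, with adjusted p up to 0.11.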

How the results depend on the processing

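None of the 99 called values of single genes changed direction under an alternative, while 22 of the 64 values that were not called lay on both sides of 0, AT3G07080 at 4 min in rbohD local leaves (-0.16 to 0.00) and the genotype term of HSP70B at 4 min (-0.22 to 0.08) among them. Of the values of single genes, 2409 kept their side of the threshold, 105 lost a call and 27 gained one. The number of genes meeting the rule was 11 with a level minimum of 100, 32 with an 8 min limit of 1 and 8 with an 8 min limit of 2, against 17, and 16 to 18 when 1 library was left out. Calls at 4 min in rbohD systemic leaves numbered 2, against 4, without rbohD systemic 4 min replicate 1 (2 to 4 over all such fits). Calls at 4 min in local leaves ranged from 12 to 14 in rbohD and 13 to 15 in WT when 1 library was left out, at 2 min in systemic leaves from 11 to 12 in rbohD and 7 to 9 in WT, and at 4 min in WT systemic leaves from 3 to 4. The genotype term had 5 to 6 calls at 4 min and 11 to 12 at 2 min, and the leaf term 9 to 12 in rbohD and 9 to 11 in WT.

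The replicate number as a block gave 14 calls at 4 min in rbohD local leaves (13 without it), 15 in WT local leaves (15), 13 and 9 at 2 min in rbohD and WT systemic leaves (14 and 10), and 10 and 12 for the leaf term (10 and 12). Deviations of libraries with the same number in a table correlated between -0.0784 and 0.146, and in 72 of 144 comparisons a library correlated best with its own number, where 48 would do so with no link. Only 4 of these 72 correlations were over 0.1 (median 0.02), so the number was not taken to pair the libraries. Local and systemic leaves of a plant pool correlated between -0.0142 and 0.136, and 31 of 48 libraries correlated best with their own pool, where 16 would with no link. The pool as a block lost the leaf term of AT3G13310 in WT (adjusted p = 0.059) and added that of AT1G20640 in rbohD (adjusted p = 0.047).

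Rescaling to a common total moved the share of calls that were higher, over all genes, to 65.9% from 52% at 4 min in rbohD local leaves, 71.6% from 52.3% in rbohD systemic and 69.8% from 49.7% in WT systemic leaves, 64.2% from 50.5% at 2 min in WT systemic leaves, 69.9% from 52.5% for the genotype term at 4 min, 38.7% from 52.7% at 2 min, and 13.5% from 35% for the leaf term in WT. Depth limits HSP22.0 most, with 0 reads before 4 min in local leaves.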
